A study of Sus scrofa with 6 samples.

Results

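The trefoil peptides, the mucins, the glucagon precursor and chromogranin A are products of the secretory cells of the gut, and their mRNA was compared between air-liquid interface (ALI) and submerged (SMC) cultures of the intestinal porcine cell line IPEC-1. Members were chosen by gene symbol, with earlier results of these data known, so shares of members beside all probe sets are a description only. They are all probe sets whose platform symbol is TFF1, TFF2, TFF3, GCG or CHGA or starts with MUC and a digit. This gave 9 genes of the 6765 with a symbol, on 10 of the 23999 probe sets that are not array controls. MUC1 had 2 probe sets and each other gene had 1. The mucins found were MUC1, MUC4, MUC15 and MUC19, while the gel-forming MUC2, MUC5AC, MUC5B and MUC6 were not analysed here, as no probe set carried their symbol.

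Goblet cells store gel-forming mucins and trefoil peptides in granules and release both onto the epithelium, where they form mucus and aid the closure of epithelial wounds. Transmembrane mucins such as MUC1 and MUC4 stay on the apical surface of epithelial cells of several kinds, extend a glycosylated ectodomain into the lumen and have cytoplasmic or membrane-near parts that bind signaling proteins. Enteroendocrine cells store peptide hormones together with chromogranins, and L cells among them cleave the product of GCG into glucagon-like peptides.

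In ALI cultures the apical side carried a thin liquid film, and in SMC cultures it carried a column of medium. Both were grown on porous membranes in the same medium with insulin, transferrin, selenium and epidermal growth factor, and their last weeks were free of serum. IPEC-1 is a non-transformed epithelial line from the small intestine of newborn piglets, so that the 3 ALI and the 3 SMC arrays all stand for 1 line. Each group had 1 array of each of the passages P109, P111 and P113, which are replicates 1, 2 and 3. The methods speak of independent experiments, and the free-text description of the samples, which names liver, was not followed.

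Of the 10 probe sets, GCG was higher in ALI than in SMC cells, and TFF3 and the brighter probe set of MUC1 were lower. Over all probe sets, limma called 1.9% at an adjusted p under 0.05, with 0.663% higher and 1.23% lower in ALI cells. The 3 ALI values lay apart from the 3 SMC values in 4 of the 10 probe sets, those of GCG, TFF3, MUC1 and MUC4, while such a separation was found in 19.6% of all probe sets. GCG was the 1 probe set with higher ALI values, where 10.3% of all were, and the 3 others had lower ones, where 9.27% of all were. All values are log2 signals of single probe sets. The lowest 25% of an array's probe sets ended at 4.52 to 4.62, and a signal below this range is called dim here. No detection calls were used, so neither a dim signal nor one above this range is shown to be above background. RNA came from whole cultures, in which fewer cells of a type and less RNA per cell cannot be told apart.

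**Figure D1:**
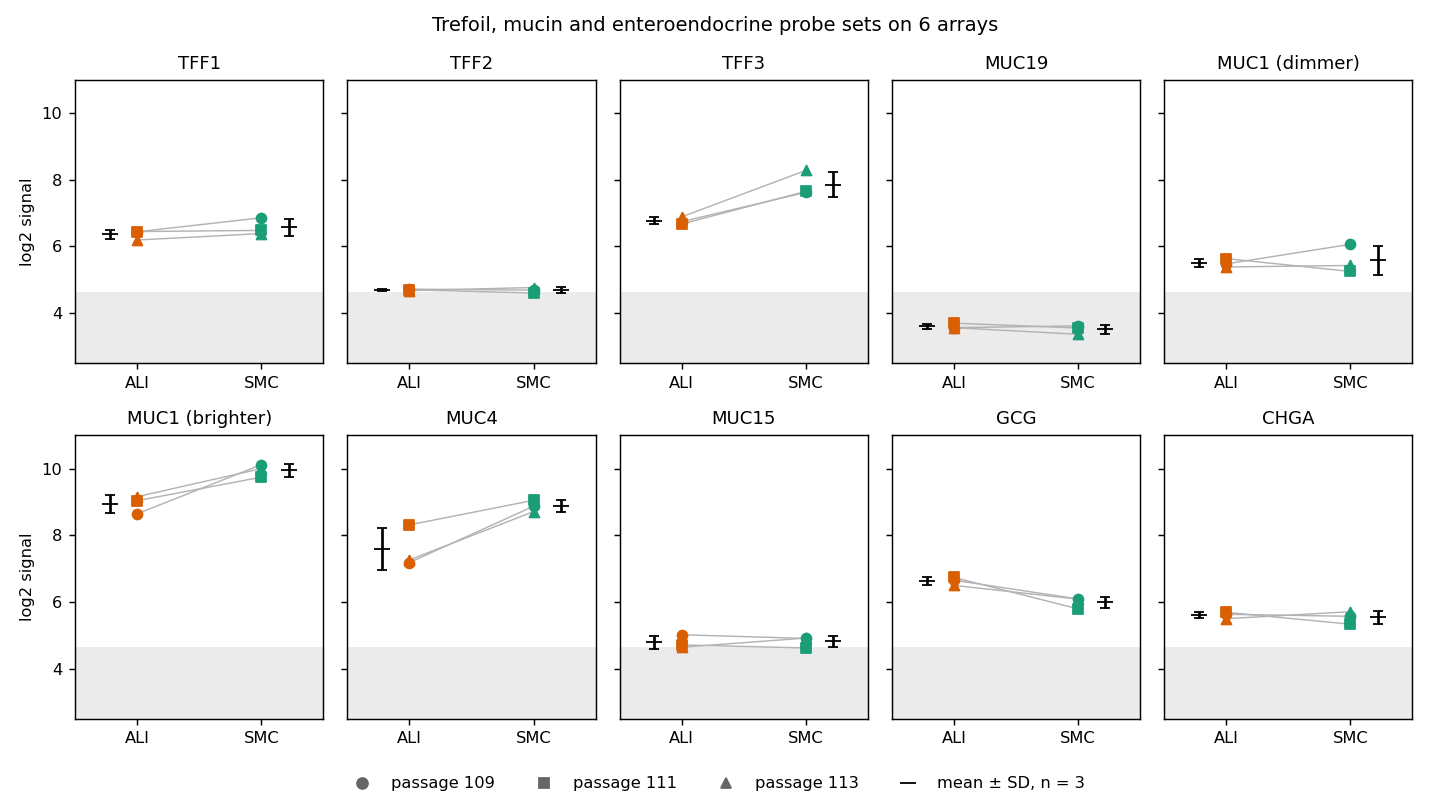
Log2 signal of the 10 probe sets on the 6 arrays, with ALI on the left and SMC on the right of each panel. Symbols give the passage, grey lines join the arrays of one passage, black bars give the mean ± SD of 3 arrays, and the grey zone is the lowest 25% of array values. The ALI and SMC points lie apart for TFF3, MUC1 (brighter), MUC4 and GCG and overlap in the 6 other panels.

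TFF3, the trefoil peptide of intestinal goblet cells, had log2 signals of 6.74, 6.67 and 6.89 in ALI cells at passages P109, P111 and P113, against 7.62, 7.65 and 8.28 in SMC cells. The highest ALI value thus lay 0.74 log2 units under the lowest SMC value. The 3 ALI values were close to each other, and the SMC culture of passage P113 was higher than the other SMC cultures. The log2 difference of ALI minus SMC was -1.08 (95% interval -1.50 to -0.67, adjusted p = 0.0266 from limma), an ALI signal of 0.472 times that of SMC. By passage the difference was -0.88, -0.98 and -1.39.

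TFF1, a trefoil peptide best known from the surface mucous cells of the stomach, had 6.44, 6.44 and 6.19 in ALI and 6.86, 6.48 and 6.38 in SMC cells. These values overlapped, and the log2 difference was -0.22 (95% interval -0.56 to 0.12, adjusted p = 0.563 from limma). TFF2, the trefoil peptide of gastric mucous neck cells, lay just above the dim range with 4.72, 4.70 and 4.67 in ALI and 4.69, 4.60 and 4.77 in SMC cells. Its log2 difference was 0.011 (95% interval -0.21 to 0.23, adjusted p = 0.977 from limma). In the pig RefSeq annotation, TFF3, TFF2 and TFF1 follow each other with no gene between them. Of the 3 neighbours, TFF3 alone passed the test, and whether its difference exceeds that of the other 2 was not tested.

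The brighter probe set of MUC1 (identifier ending in S1_at), a transmembrane mucin of most simple epithelia, gave 8.65, 9.04 and 9.16 in ALI cells, against 10.12 and 9.74 in SMC cells of P109 and P111 and a value between these at P113. The groups were separated by 0.59 log2 units. The log2 difference was -1.01 (95% interval -1.38 to -0.64, adjusted p = 0.0228 from limma), and the ALI signal was 0.498 times that of SMC. The dimmer probe set of the same gene (identifier ending in A1_at) had 5.47, 5.63 and 5.38 in ALI and 6.06, 5.25 and 5.43 in SMC cells. Here the groups overlapped, since the SMC culture of passage P109 alone was above all ALI cultures, and the log2 difference was -0.083 (95% interval -0.54 to 0.38, adjusted p = 0.90 from limma). The intervals of the 2 MUC1 probe sets do not overlap. When both were averaged into 1 value for the gene, the log2 difference was -0.54 and the call was lost (adjusted p = 0.166 from limma).

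MUC4, a large transmembrane mucin that binds the receptor ERBB2 in human and rodent cells, had the difference farthest from 0 of the 10 probe sets. Its log2 signals were 7.18, 8.31 and 7.26 in ALI cells, against 8.87, 9.05 and 8.71 in SMC cells. All ALI values were below all SMC values, and the ALI culture of passage P111 lay more than 1 log2 unit above the 2 other ALI cultures. The SD was 0.632 in ALI and 0.169 in SMC cells (n = 3 each). The log2 difference of -1.29 (95% interval -1.93 to -0.65) did not pass the test when the passage was left out of the fit (adjusted p = 0.0657 from limma). With the passage as a block, the same difference had an interval of -1.69 to -0.89 and passed (adjusted p = 0.0059 from limma). In that fit, 5.32% of all probe sets were called, 2% higher and 3.32% lower, and of the 10 probe sets described here GCG was higher and TFF3, MUC1 and MUC4 were lower. The calls of the 9 other probe sets were the same with and without the block. With the block and both arrays of 1 passage left out in turn, MUC4 passed each time, with adjusted p between 0.00346 and 0.0175.

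MUC15, a small transmembrane mucin, had 5.02, 4.71 and 4.64 in ALI and 4.91, 4.62 and 4.92 in SMC cells. The groups overlapped, and the log2 difference was -0.024 (95% interval -0.34 to 0.29, adjusted p = 0.962 from limma). MUC19, a gel-forming mucin of salivary and other glands, had 3.56, 3.70 and 3.56 in ALI and 3.62, 3.55 and 3.36 in SMC cells. All 6 values were dim. The log2 difference of MUC19 was 0.096 (95% interval -0.16 to 0.35, adjusted p = 0.752 from limma).

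GCG, which encodes proglucagon, was the only one of these genes with a higher signal in ALI cells that passed the test. It had 6.65, 6.73 and 6.50 in ALI cells, against 6.09, 5.79 and 6.08 in SMC cells. The groups were separated by 0.41 log2 units. The log2 difference was 0.64 (95% interval 0.36 to 0.92, adjusted p = 0.0448 from limma), a ratio of 1.56 of ALI over SMC. CHGA, the granule protein chromogranin A found in most enteroendocrine cells, had 5.63, 5.69 and 5.50 in ALI and 5.57, 5.33 and 5.71 in SMC cells. Its values overlapped, with a log2 difference of 0.069 (95% interval -0.22 to 0.36, adjusted p = 0.855 from limma).

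**Figure D2:**
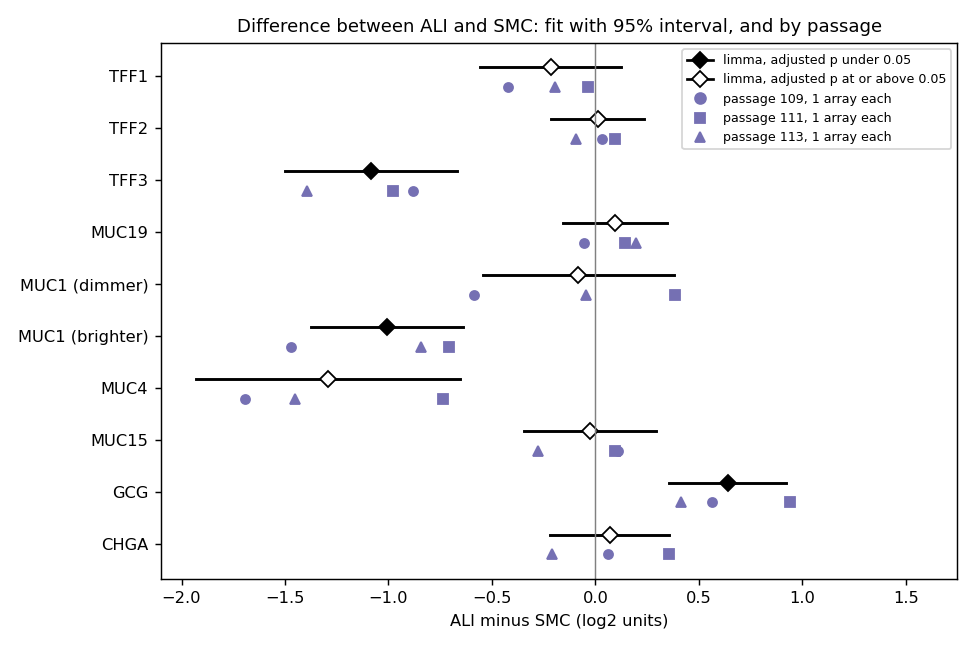
ALI minus SMC in log2 units for each probe set. Diamonds and bars are the limma estimate and its 95% interval over 3 arrays a group, filled where the adjusted p is under 0.05, and the symbols under each bar are the differences at single passages. TFF3, MUC1 (brighter) and MUC4 lie left of 0 and GCG lies right of 0 at each passage.

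The direction was the same at each passage for 5 probe sets, namely TFF3, TFF1, the brighter MUC1, MUC4 and GCG. At passages P109, P111 and P113, ALI minus SMC was -1.47, -0.71 and -0.84 for the brighter MUC1 probe set. For MUC4 it was -1.69, -0.74 and -1.45, and for GCG 0.56, 0.94 and 0.41. Passage P111 thus had the difference nearest to 0 for the brighter MUC1 probe set and for MUC4, and the one farthest from 0 for GCG. Behind each value was 1 array per culture type. TFF3 had its difference farthest from 0 at passage P113. TFF1 differed by -0.42, -0.04 and -0.19. For TFF2, MUC15, MUC19, CHGA and the dimmer MUC1 probe set the sign was not the same at all passages.

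Leaving out single arrays changed the calls of the 4 separated probe sets. The number called of all probe sets also changed, from 455 to between 119 and 432, so a lost call need not be particular to these genes. With single arrays left out in turn, TFF3 passed in 3 of 6 fits, with adjusted p from limma between 0.0251 and 0.111, and its call was lost when the ALI array of P109 or that of P111 or the SMC array of P111 was absent (0.111, 0.0758 and 0.0823). The brighter MUC1 probe set passed in 1 of 6 fits, the one lacking the ALI array of P113, with adjusted p between 0.0257 and 0.0788. GCG likewise passed in that fit alone, with a range of 0.0487 to 0.171. For MUC4, the fit lacking the ALI array of P111, which had its highest ALI signal, gave a log2 difference of -1.66 and passed (adjusted p = 0.00358 from limma). The 5 other fits of MUC4 gave adjusted p between 0.103 and 0.258. The log2 difference kept its sign in all 6 fits of each of these 4 probe sets. It ranged over -1.20 to -0.87 for TFF3 and -1.11 to -0.86 for the brighter MUC1 probe set. For MUC4 the range was -1.66 to -1.09, and for GCG 0.54 to 0.70.

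**Figure D3:**
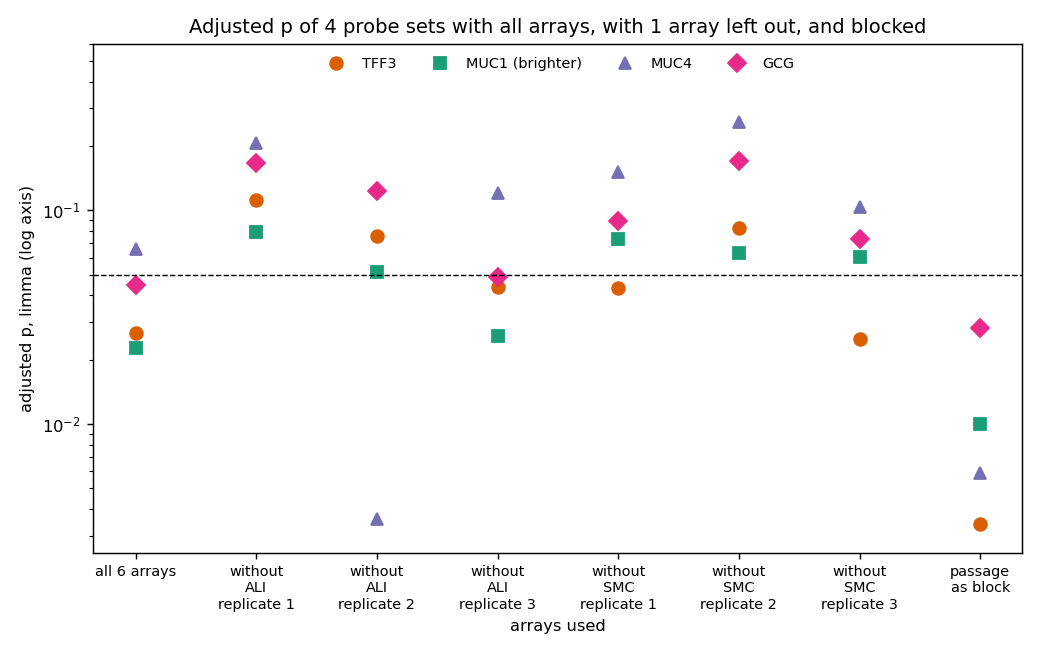
Adjusted p from limma (log axis) of TFF3, the brighter MUC1 probe set, MUC4 and GCG with all 6 arrays, with 1 array left out in turn, and with the passage as a block. The dashed line marks 0.05. MUC4 is the highest of the 4 points with all 6 arrays and lies under the line without ALI replicate 2 and with the block, while all 4 lie under the line with the block.

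Other goblet cell products and factors were read from a list of 23 genes, of which 8 had a probe set with their symbol. For reference, over the 6765 genes with a symbol, at the brightest probe set of each, limma called 2.53% and the median log2 difference was 0.009. Of the 8 goblet cell genes the test called 1, and their median log2 difference was 0.05, beside 0.02 over all probe sets. The called gene, lower in ALI cells, was the tetraspanin TSPAN13, with 11.17, 11.10 and 10.87 in ALI and 11.72, 11.57 and 11.61 in SMC cells (log2 difference -0.59, adjusted p = 0.0474 from limma). This call was lost in each fit with 1 array left out, where adjusted p was 0.0819 or more. With all 6 arrays it was lost after quantile normalization (adjusted p = 0.0633 from limma). Goblet cell proteins of the granules and mucus did not pass the test: the log2 difference was -0.12 for SPINK4 and 0.057 for FCGBP (adjusted p = 0.748 and 0.852 from limma). Both are named here after their values were seen, as are CLCA1 and FOXA2. CLCA1, a protein that goblet cells secrete with mucins, was among the brightest probe sets of the arrays, with 13.99, 14.12 and 14.18 in ALI and 14.28, 14.44 and 14.47 in SMC cells. Its groups did not overlap, and its log2 difference was -0.30 (adjusted p = 0.251 from limma). FOXA2, a forkhead factor of the endoderm that in mice takes part in the differentiation of goblet and enteroendocrine cells, averaged 9.99 ± 0.094 in ALI and 9.29 ± 0.25 in SMC cells (SD, n = 3 each), with no overlap. Its log2 difference of 0.70 missed the threshold in the main fit (adjusted p = 0.0514 from limma) and passed with the passage as a block (0.0146). Without the block, it passed after quantile normalization, with a filter at a mean above 6 and with an intensity trend (0.031, 0.048 and 0.0493). It did not pass after median centring or with a filter at a mean above 4 (0.0511 and 0.0512), nor with any 1 array left out. A dimmer FOXA2 probe set was at -0.19, with overlapping groups (adjusted p = 0.625 from limma).

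Mucins carry chains of O-linked sugars, and 12 of 31 listed genes of O-glycosylation, sulfation and secretion were measured. At the brightest probe set of each gene none of them passed the test, and the median log2 difference was 0.0089. Closest to it were GALNT10, which adds the first sugar of such a chain, at 0.57 (adjusted p = 0.0632 from limma) and the sialyltransferase ST3GAL1 at 0.72 (adjusted p = 0.184 from limma). Both were called with the passage as a block (adjusted p = 0.0365 and 0.0428 from limma). GALNT10 was also called after quantile normalization (adjusted p = 0.0366 from limma), and in no other alternative fit. The 4 probe sets of ST3GAL1 did not give 1 answer. One of the dimmer ones averaged 7.04 ± 0.079 in ALI and 5.87 ± 0.12 in SMC cells (SD, n = 3 each) and was called higher at 1.17 (adjusted p = 0.00324 from limma), while the others were at -0.047 and 0.24. It was the only called one among the 48 further probe sets of the 33 listed genes that had more than 1. The dimmer probe set of GALNT10 was at 0.42 and not called (adjusted p = 0.142 from limma). Of 18 listed genes of MUC1 cleavage and signaling partners, 10 were measured and none passed at its brightest probe set. The brightest probe sets of the metalloproteases ADAM9 and ADAM10 had log2 differences of -0.52 and -0.43 (adjusted p = 0.224 and 0.194 from limma). Of 3 dimmer ADAM9 probe sets, 1 was dim at -0.053, and the others, at -0.74 and -0.75, did not pass in this fit (adjusted p = 0.257 and 0.171 from limma) but did, as lower, in the blocked fit (0.0462 and 0.0191). Of 10 listed partners and receptors of trefoil peptides, 4 were measured and none passed. The protease-activated receptor gene F2RL2 was at -0.43 and GKN1, a secreted protein of gastric surface cells, at 0.22 (adjusted p = 0.311 and 0.348 from limma), with GKN1 in the dim range.

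Of 32 listed enteroendocrine products and factors beside GCG and CHGA, 14 were measured, and 8 of these were dim in both groups. The test called 1 of them, with a median log2 difference of 0.057 over the 14. The called gene, lower in ALI cells, was DDC, the decarboxylase that forms serotonin and dopamine and that enterocytes express as well. It had 5.23, 5.69 and 5.38 in ALI cells, against 6.79, 7.02 and 6.86 in SMC cells, and its log2 difference of -1.46 (95% interval -1.78 to -1.14, adjusted p = 0.00376 from limma) stayed called in all 6 fits with 1 array left out. Of the chromogranin and secretogranin genes, CHGB, SCG2 and SCG3 had log2 differences of -0.020, -0.16 and 0.039, with dim means in both groups. SCG5 was not dim, with means of 7.69 in ALI and 8.003 in SMC cells, and its log2 difference was -0.32 (adjusted p = 0.57 from limma). Of 11 listed genes that process, break down or receive proglucagon peptides, 5 were measured and none passed. PCSK1, the convertase of intestinal L cells, lay at 3.12, 3.18 and 3.39 in ALI and 3.17, 3.19 and 3.17 in SMC cells, under the lowest 5% point of the arrays on average. PCSK2, the convertase of pancreatic alpha cells, had 8.19, 7.74 and 7.47 in ALI and 8.13, 7.86 and 7.93 in SMC cells (log2 difference -0.17, adjusted p = 0.734 from limma). PAM, which amidates peptide hormones, had 0.39 (adjusted p = 0.203 from limma).

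**Figure D4:**
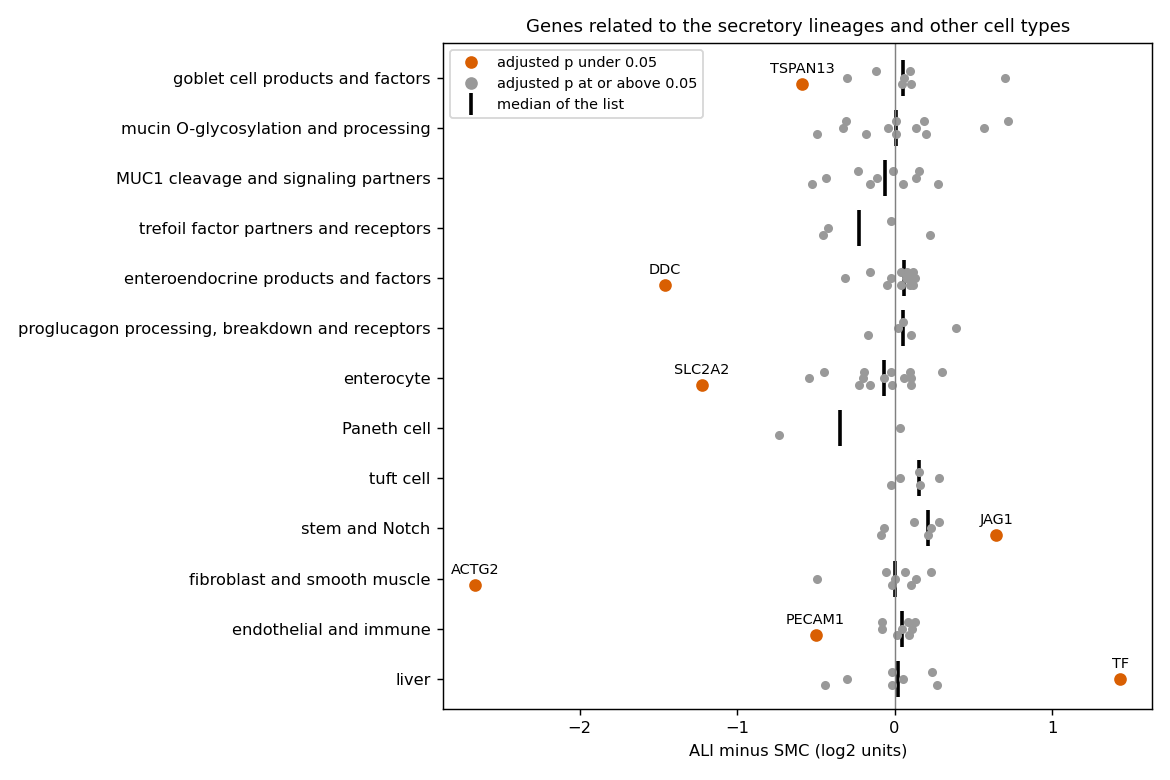
ALI minus SMC in log2 units of the measured genes of each list, 1 probe set a gene, at the brightest one, over 3 arrays a group. Orange points passed limma's test over all probe sets, grey points did not, and the black bar is the median of the list. The goblet cell, enteroendocrine and enterocyte lists hold 1 called gene each, and no gene of O-glycosylation, MUC1 partners or proglucagon processing was called at its brightest probe set.

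Markers of other cells were read beside these values. Of 22 listed enterocyte markers, 15 were measured, and the glucose transporter SLC2A2 was lower in ALI cells at -1.22 (adjusted p = 0.00759 from limma) with none higher. Of the 15, 6 were dim in both groups and the others were not, among them APOA1 (means of 8.52 in ALI and 8.67 in SMC cells) and HNF4A (7.13 in ALI and 7.15 in SMC cells). The fatty acid binding protein genes FABP1 and FABP2 were among the dim ones, brighter than 5.79% and 3.94% of probe sets in ALI cells and 4.73% and 3.05% in SMC cells. Of 9 measured genes each of the fibroblast and smooth muscle list and of the endothelial and immune list, the smooth muscle actin gene ACTG2 (-2.66) and the endothelial gene PECAM1 (-0.50) were called lower (adjusted p = 0.0158 and 0.0448 from limma). A dimmer probe set of ACTG2 had the opposite sign at 0.68 and was not called (adjusted p = 0.528 from limma), and that of PECAM1 was at -0.37 (adjusted p = 0.145 from limma). ACTG2 lost its call when the ALI array of P109 was left out (adjusted p = 0.081 from limma), and PECAM1 lost it with each array. The PECAM1 call was also lost after quantile normalization, after median centring and with an intensity trend (adjusted p = 0.0546, 0.0501 and 0.0752 from limma). Of the 9 endothelial and immune genes 5 were dim in both groups, among them the leukocyte gene PTPRC and the endothelial gene CDH5. Of the 9 fibroblast and smooth muscle genes 2 were. Genes that were not dim include TAGLN (means of 10.1 in ALI and 10.2 in SMC cells), COL1A2 (7.56 and 7.33) and PECAM1 (7.14 and 7.64). Of 8 liver genes, which the samples' description made worth reading, TF, the gene of transferrin, was higher at 1.43 (adjusted p = 0.0412 from limma), while its other probe set was at 1.70 and not called (adjusted p = 0.0991). Of the 7 other liver genes none was called. ALB, SERPINA1 and AHSG were well above the dim range, with means of 8.28, 8.18 and 7.55 in ALI and 8.58, 8.62 and 7.28 in SMC cells, and only APOA2 and FGB were dim. The call of TF held in 1 of 6 fits with an array left out, the one lacking the SMC array of P113. The median log2 signal of the 15 enterocyte markers per array ranged over 5.19 to 5.24 in ALI and 5.10 to 5.29 in SMC cells. For the 9 endothelial and immune markers it was 4.43 to 4.56 in ALI and 4.23 to 4.58 in SMC cells, and for the 9 fibroblast and smooth muscle markers 5.43 to 6.44 in ALI and 6.32 to 6.46 in SMC cells. For the 8 liver genes it was 5.98 to 6.16 in ALI and 5.09 to 5.55 in SMC cells, but the median log2 difference of the 8 genes was 0.020, and TF alone among them had groups without overlap. The part of such cells in the differences of TFF3, MUC1, MUC4 and GCG was not tested.

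The genes with a pattern most like that of TFF3, MUC1 and GCG were found among the genes with a mean log2 signal above 6, 5061 for each of the 3. The measure was the root mean square difference over the 6 arrays after each gene's own mean was subtracted, so that 0 is an equal pattern. For TFF3 they were UPTI, a trypsin inhibitor gene (0.143), SKA2, a kinetochore subunit (0.155), and NEU1, the lysosomal sialidase (0.156), where a gene with no variation would be at 0.587. For the brighter MUC1 probe set they were TMPO, a protein of the nuclear envelope (0.123), SLC44A4, a transporter of the choline transporter-like family (0.148), and RGCC (0.167), with 0.538 for a gene with no variation. For GCG they were the splicing factor gene SRSF10 (0.0911), FADS6 (0.123) and MYO10, an unconventional myosin (0.124), with 0.342 for a gene with no variation. As 6 arrays were set against 5061 genes, close matches are given as a description only.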

How the data were processed

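The authors hybridized RNA of IPEC-1 cells to 6 GeneChip Porcine Genome Arrays, used Affymetrix GCOS (version 1.1.1 in the submitters' processing notes) and, per the methods, normalized by GC-RMA. The deposited table holds log2 values of 24123 probe sets, names no normalization and was not scaled again. Array medians were 6.34 to 6.39.

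Array controls (124 probe sets) were left out. The model for the 23999 others, run in R 4.3.3 with limma 3.58.1 (lmFit, eBayes), held the culture type and no other term. Tests were two-sided. Benjamini-Hochberg adjustment covered the whole table, with calls at an adjusted p under 0.05. In the platform annotation 10069 probe sets carry exactly 1 symbol and can name a gene, which the 198 with several and the 13732 without cannot. In the lists, the probe set with the highest mean stood for a gene, and 107 of 211 genes were measured.

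By the labels, every passage was grown in both culture types. Deviations of such pairs from their group means correlated at 0.34, 0.14 and 0.451 across probe sets. Arrays of different passages correlated at -0.424 to 0.219, the highest (ALI P111 with SMC P109) above the P111 pair. The passage was taken as a pairing because the labels state it. This pairing entered only the alternative fit with the passage as a block, and the main fit left it out. Precision is set by the small number of arrays, with which exact permutation p-values stay at 0.1 or above. In simulated data for this comparison over 23999 probe sets, limma recovered 104, 195 and 200 of 200 probe sets changed by 0.585, 1 and 2 log2 units, and called 0 with no change simulated. The simulated noise was normal and independent between arrays, with the variances that limma estimated and no passage effect. These counts therefore need not hold for the real arrays.

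Every member gene was named, with all called genes of the lists or, where none was called, the 2 with the lowest p, and the 3 genes most like each of TFF3, MUC1 and GCG. Further list genes, such as CHGB, PCSK1, APOA1, ALB, PTPRC and HES1, are named outside this rule and are not a selection fixed beforehand. The members and lists were chosen with earlier results of these data known. Alternatives were the passage as a block, quantile normalization, median centring, filters at a mean above 4 and above 6, and an intensity trend. Further ones were a t-test with equal variances, as the methods name a t-test, and leaving out each array. Leaving out both arrays of a passage was chosen after seeing the data.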

Additional observations from a re-analysis of the deposited data

How the results depend on the processing

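The counts depended on the arrays and the test. Of all probe sets, 455 were called, 1276 with the passage as a replicate block, and between 119 and 432 without 1 array. Of the 10 probe sets described, 1 was called higher and 2 lower, 1 and 3 with the block, and between 0 and 1 higher and between 0 and 2 lower without 1 array. With the intensity trend 0 were higher (GCG, adjusted p = 0.0533 from limma). A t-test, the kind of test the methods name, called 0 of all probe sets and 0 higher and 0 lower of the 10 after adjustment. Its unadjusted p was under 0.05 for 2891 of all, and for 1 higher and 3 lower of the 10. It was run with equal variances and adjusted over the whole table, which the methods do not specify. The count of 0 is not the authors' own result. The paper reports significant genes in both directions and names TFF3 among the strongly lower ones. The block ended none of the calls among the 10 probe sets and, beside MUC4, FOXA2, GALNT10, ST3GAL1 and SOX9, changed none among the list genes named here at their brightest probe set. It added calls at 2 dimmer probe sets of ADAM9 and, as higher, at the dimmer probe set of TF (adjusted p = 0.00813 from limma). With both arrays of a passage left out and the block kept, GCG had adjusted p of 0.0733, 0.116 and 0.0269 without P109, P111 and P113. TFF3 and the brighter MUC1 probe set stayed called in each of these fits. Their adjusted p from limma was between 0.00332 and 0.0187 for TFF3 and between 0.0167 and 0.0235 for MUC1.

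Signs turned only for 4 probe sets that passed no test. The dimmer MUC1 probe set ranged over -0.25 to 0.16 without 1 array and was 0.17 without P109 in the blocked fit. MUC15 ranged over -0.14 to 0.050 (0.015, 0.022 and 0.027 were the other positive values) and was 0.10 without P113. CHGA ranged over -0.033 to 0.15 and was -0.074 without P111. TFF2 ranged over -0.031 to 0.052, was -0.035 after quantile normalization and -0.031 without P111. The causes were not tested. All MUC19 values were dim, and TFF2 and MUC15 had values close above that range.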

Other observations

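Genes of other lineages of the crypt were read from lists as well. JAG1, a Notch ligand, was higher in ALI cells, with 10.78, 10.59 and 10.89 against 10.01, 10.03 and 10.28 in SMC cells (log2 difference 0.65, adjusted p = 0.0448 from limma), and it was the only called gene of 7 measured stem cell and Notch genes. This call was lost without any 1 array other than SMC replicate 3, and after median centring (adjusted p = 0.0519 from limma). Dimmer JAG1 probe sets were at 0.30 and 0.26 and not called (adjusted p = 0.193 and 0.438 from limma). The Notch target HES1, a repressor of secretory differentiation, had a log2 difference of -0.07 (adjusted p = 0.911 from limma). Of 2 measured Paneth cell genes, MMP7 was at 0.03 and SOX9 at -0.73 (adjusted p = 0.949 and 0.452 from limma). The groups of SOX9 overlapped, with 6.73, 5.83 and 6.03 in ALI and 7.89, 6.57 and 6.33 in SMC cells, and with the passage as a block it was called lower (adjusted p = 0.0389 from limma). Of 5 measured tuft cell genes none was called, with DCLK1 at 0.28 and PTGS1 at 0.16 (adjusted p = 0.321 and 0.567 from limma).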
